A study of Mus musculus with 46 samples.

Results

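Old and young mouse livers were compared 0.5 h after partial hepatectomy (PH), the surgical removal of 70% of the liver. The 6 arrays of this comparison, 3 old and 3 young, were taken by their labels from the 46 arrays of the series. All 12422 probe sets other than the array's controls were tested. The mice were CB6F1 hybrid males aged 5 to 6 months (young) or 25 to 27 months (old), operated on under avertin and isoflurane anaesthesia. Young animals came from Jackson Laboratories and old animals from the National Institute on Aging, as the labels' protocols state. Age and supplier cannot be told apart. The other groups used here were unoperated livers at 0 h (3 old and 3 young arrays) and livers 0.5 h after a sham operation (2 and 2). The 8 conditions other than PH at 0.5 h, with 20 old and 20 young arrays, gave the age difference in arrays that the main comparison did not use. These conditions are 0 h, PH at 1, 2 and 4 h, and sham surgery at 0.5, 1, 2 and 4 h. Total RNA of whole liver was measured, and values are log2 expression per probe set, so a difference of 1 is a 2-fold difference. Nothing in the labels says that the replicates of a group were separate animals. The p-values measure only the spread between arrays, and part of it may be technical.

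After hepatectomy the remaining hepatocytes leave their resting state. In the first minutes immediate early genes such as Fos, Jun and Egr1 are switched on, and signals from Kupffer cells, the resident macrophages of the liver, prepare hepatocytes for growth factors. The liver also carries a circadian clock. The activators CLOCK and BMAL1 (gene Arntl) switch on the Per and Cry genes, whose products repress them, and output regulators such as Dbp pass the rhythm to genes of bile acid, lipid and drug metabolism.

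The hepatocyte marker genes had high signals on all 6 arrays. Albumin (Alb, chosen after its values were seen) was at 13.68, 13.78 and 13.62 in old and 13.88, 14.02 and 13.99 in young liver, replicates 1, 2 and 3 in that order, as in all lists of values that follow. The old arrays varied more than the young arrays. Pairwise correlations over all probe sets were 0.982 to 0.990 among old and 0.994 to 0.997 among young arrays, and the median SD between replicates was 0.141 and 0.0948 log2 units. Old replicate 1 stood apart on the first principal component of the 6 arrays (42.5% of the variance), with a score of 30.6 against -9.50 to -2.88 for the others. Old replicate 3 had the lowest mean of the bacterial spike-in controls, 7.68 against 9.60 to 10.65. The spike-in difference between the ages was -0.787 (exact permutation p = 0.6, two-sided; 3 against 3 arrays cannot go below 0.1). Old replicate 2 had the largest difference between the 3′ and 5′ actin control probe sets, 2.06 against 0.89 to 1.16.

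In old liver, 20 probe sets were higher (0.161% of those tested) and 19 were lower (0.153%) at an adjusted p under 0.05, 39 or 0.314% in all (limma, Benjamini-Hochberg over 12422 probe sets). At an unadjusted p under 0.05 the count was 1206, or 9.71%. Counted by gene, with each gene given by its probe set of highest mean signal, 9 of 8251 genes were higher (0.109%) and 11 were lower (0.133%). The higher genes included Ly6e, Ifi27, Ifi47 and Ifih1, which respond to interferon, Mpeg1 of macrophages and the class II antigen presentation gene H2-Eb1. The lower genes included 4 of the circadian clock list (Usp2, Per2, Wee1 and Dbp), the bile acid synthesis gene Cyp7a1 and the lipid synthesis genes Thrsp and Elovl2. None of the 39 probe sets overlapped between the groups, which their selection on these same arrays favours and which adds no support. Of all probe sets, 8.05% (higher) and 6.35% (lower) did not overlap. The counts depended on single arrays: the 39 became 17 without old replicate 1, 63 without old replicate 2 and 94 without old replicate 3. They became 9, 11 and 8 without young replicates 1, 2 and 3.

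**Figure D1:**
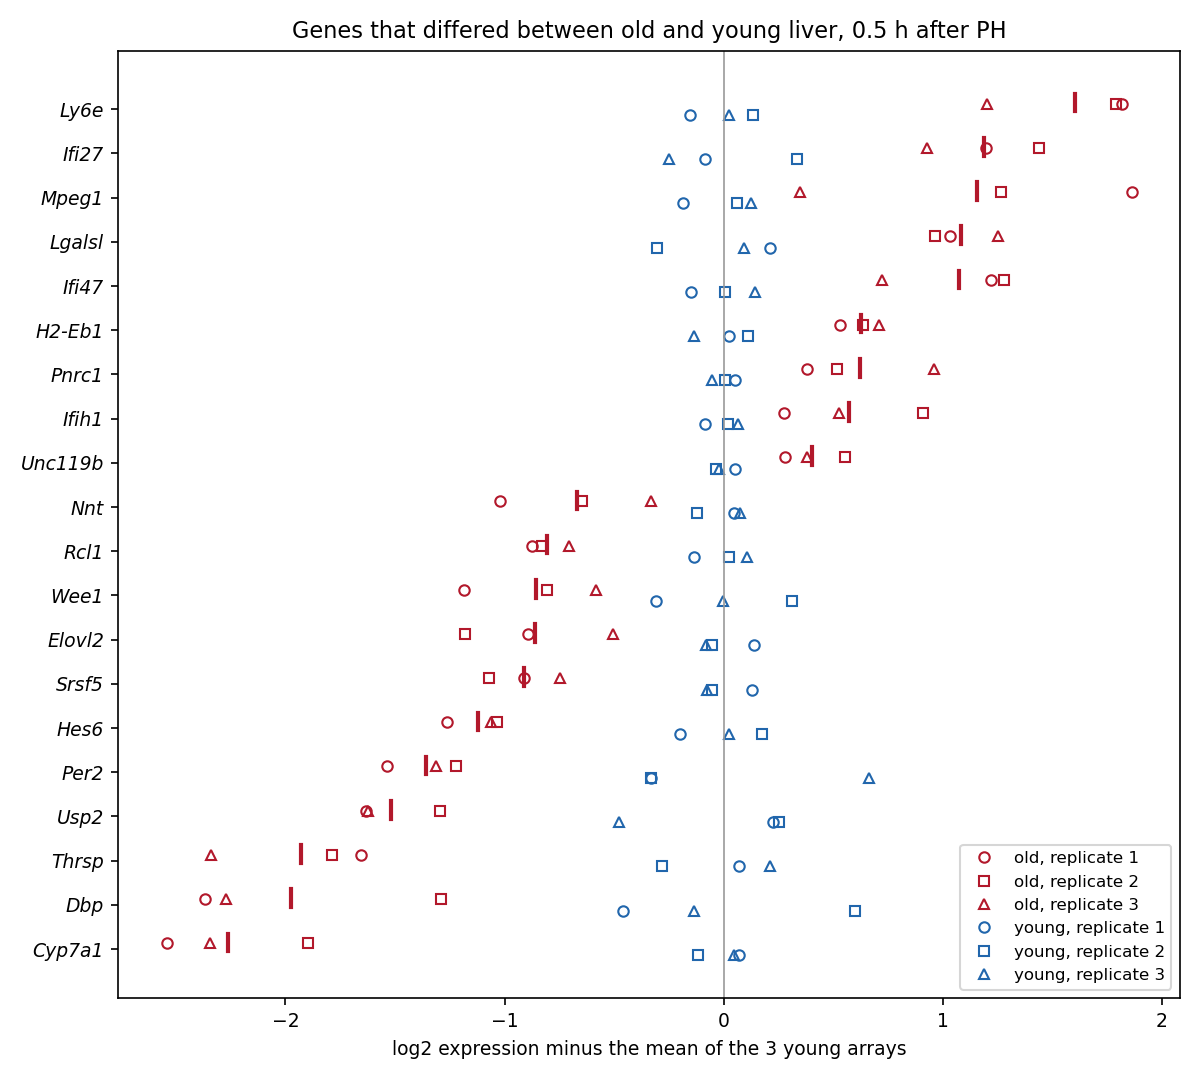
Log2 expression of the 20 genes that differed in old liver 0.5 h after PH, each array given as its difference from the mean of the 3 young arrays; symbols mark the replicate, red is old, blue is young and bars are old means. For every gene the old and young points do not overlap, which selection of the genes on these same arrays favours. The old means run from -2.26 (Cyp7a1) to 1.60 (Ly6e).

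Of the 11 lower genes, 4 belong to the circadian clock list. Usp2, a deubiquitinating enzyme that acts on clock proteins, was at 6.84, 7.18 and 6.85 in old and 8.70, 8.73 and 8.0 in young liver. Every old array was below every young array, as for 6.35% of all probe sets, and selection of the gene on these arrays favours this. The difference was -1.52 ± 0.26 (SE; limma adjusted p = 0.00256), a level 2.87-fold lower. Its other probe set gave 6.39, 6.54 and 6.49 against 8.15, 7.99 and 7.84, also a difference of -1.52 (limma adjusted p = 2.8e-05). Per2, a repressor at the core of the clock, was at 3.68, 3.99 and 3.90 in old and 4.88, 4.88 and 5.88 in young liver. The difference was -1.36 ± 0.21 (limma adjusted p = 0.000903), with young replicate 3 the highest of the arrays. Both genes passed whichever array was left out, in 6 fits, with highest adjusted p of 0.0391 (Usp2) and 0.0317 (Per2). Per2 did not pass when only the compared groups were fitted.

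Dbp, a transcription factor that the clock drives and that drives rhythmic liver genes, was at 5.05, 6.13 and 5.15 in old and 6.96, 8.02 and 7.28 in young liver. The difference was -1.98 ± 0.46 (limma adjusted p = 0.0442), 3.93-fold lower. Replicate 2 was the highest of the arrays at both ages. The Dbp call was kept in 1 of the 6 fits without 1 array, the one without old replicate 2 (difference -2.32), and the largest adjusted p, in the others, was 0.202. Wee1, the kinase that delays entry into mitosis and is a clock target in liver, was at 4.79, 5.17 and 5.39 in old and 5.67, 6.29 and 5.97 in young liver. It was lower by -0.86 ± 0.16 (limma adjusted p = 0.00688), and the call was lost without old replicate 1 (-0.69) or young replicate 2 (highest adjusted p = 0.0917).

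Of the 22 measured genes of the clock list, 4 were lower and 0 were higher at the adjusted threshold in limma. At an unadjusted p under 0.05, 7 were lower and 1 was higher, against 4.52% and 5.55% of all genes. The median over the list was -0.11, beside 0.01 over all genes, and it was -0.16 without old replicate 1 and -0.05 without old replicate 2. The gene higher at the unadjusted threshold was Arntl, the activator, whose transcript peaks when those of Dbp and Per2 are low. It was at 6.53, 6.33 and 7.28 in old and 5.67, 5.15 and 5.68 in young liver, a difference of 1.21 ± 0.33 that did not pass (limma adjusted p = 0.0979). Tef, a factor related to Dbp, was at 8.50, 8.63 and 8.54 against 8.97, 8.99 and 9.07 (-0.45, limma adjusted p = 0.177). Per1, the sister gene of Per2, was at 6.87, 6.26 and 6.44 against 7.18, 7.02 and 6.77 (-0.47, limma adjusted p = 0.18). The Tef arrays did not overlap between the ages and the Per1 arrays did. Of the 22 genes 9 were lower and 2 higher without overlap, against 6.67% and 8.12% of all genes. The repressor Nr1d1 (0.01), the output gene Per3 (0.01) and the repressor Cry1 (0.28) did not pass either. Tef, Per1, Nr1d1, Per3 and Cry1 are named after seeing their values. The sources used here do not give the hour of day at which livers were taken.

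Promoter stretches of Per1, Tef and Arntl are shown because they hold a match to a word of the clock; none of these 3 genes passed the test. Windows from 250 bases before to 50 after the annotated start (RefSeq, GRCm38.p6) were searched on both strands. The searched words were CACGTG, the E-box of CLOCK and BMAL1, TTATGTAA, the element of Dbp and Tef, and TAGGTCA, the core of the element of the nuclear receptors REV-ERB and ROR. No 2 of these words overlapped in the stretches printed. Capitals mark a match. The stretch of Per1 is chr11:69098746-69098825 (+ strand), with its match beginning 166 bases before the start. That of Tef is chr15:81802509-81802588 (+ strand), with its match beginning 127 bases before the start. That of Arntl is chr7:113207530-113207559 (+ strand), with its match 31 bases after the start.
Per1: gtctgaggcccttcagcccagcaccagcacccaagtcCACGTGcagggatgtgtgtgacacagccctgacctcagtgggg
Tef: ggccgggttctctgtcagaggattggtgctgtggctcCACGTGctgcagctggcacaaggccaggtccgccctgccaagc
Arntl: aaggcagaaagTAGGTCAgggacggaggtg

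The CACGTG word was found in the windows of 4 of the 18 clock list genes with a window (Cry1, Per1, Tef and Tspan4; 22.2%) and of 8.09% of 27025 genes. TTATGTAA was found in 2 (Per3 and Timeless), with 1.11% of all genes, and TAGGTCA in 2 (Arntl and Nfil3), with 2.97% of all genes. Among the 11 lower genes 7 had a window, and 0 of these 7 held any of the 3 words. The 250 bases before the start are shown for 2 of them, Dbp (chr7:45704997-45705246, + strand) and Usp2 (chr9:44084670-44084919, + strand), the clock genes of the lower group that had a window. All letters are in lower case because none of the words is there, which says only that these letters are not in this window. Per2 and Wee1 were not among the windows used.
Dbp: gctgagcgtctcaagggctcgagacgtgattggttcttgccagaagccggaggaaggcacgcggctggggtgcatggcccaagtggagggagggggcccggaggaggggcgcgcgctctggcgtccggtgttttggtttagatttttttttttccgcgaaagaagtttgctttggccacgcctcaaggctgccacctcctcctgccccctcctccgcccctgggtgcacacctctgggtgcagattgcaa
Usp2: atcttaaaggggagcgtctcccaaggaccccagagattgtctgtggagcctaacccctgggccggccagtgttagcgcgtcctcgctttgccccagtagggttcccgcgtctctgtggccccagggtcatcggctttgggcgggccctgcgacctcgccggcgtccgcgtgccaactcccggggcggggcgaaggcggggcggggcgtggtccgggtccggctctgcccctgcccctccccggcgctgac

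**Figure D2:**
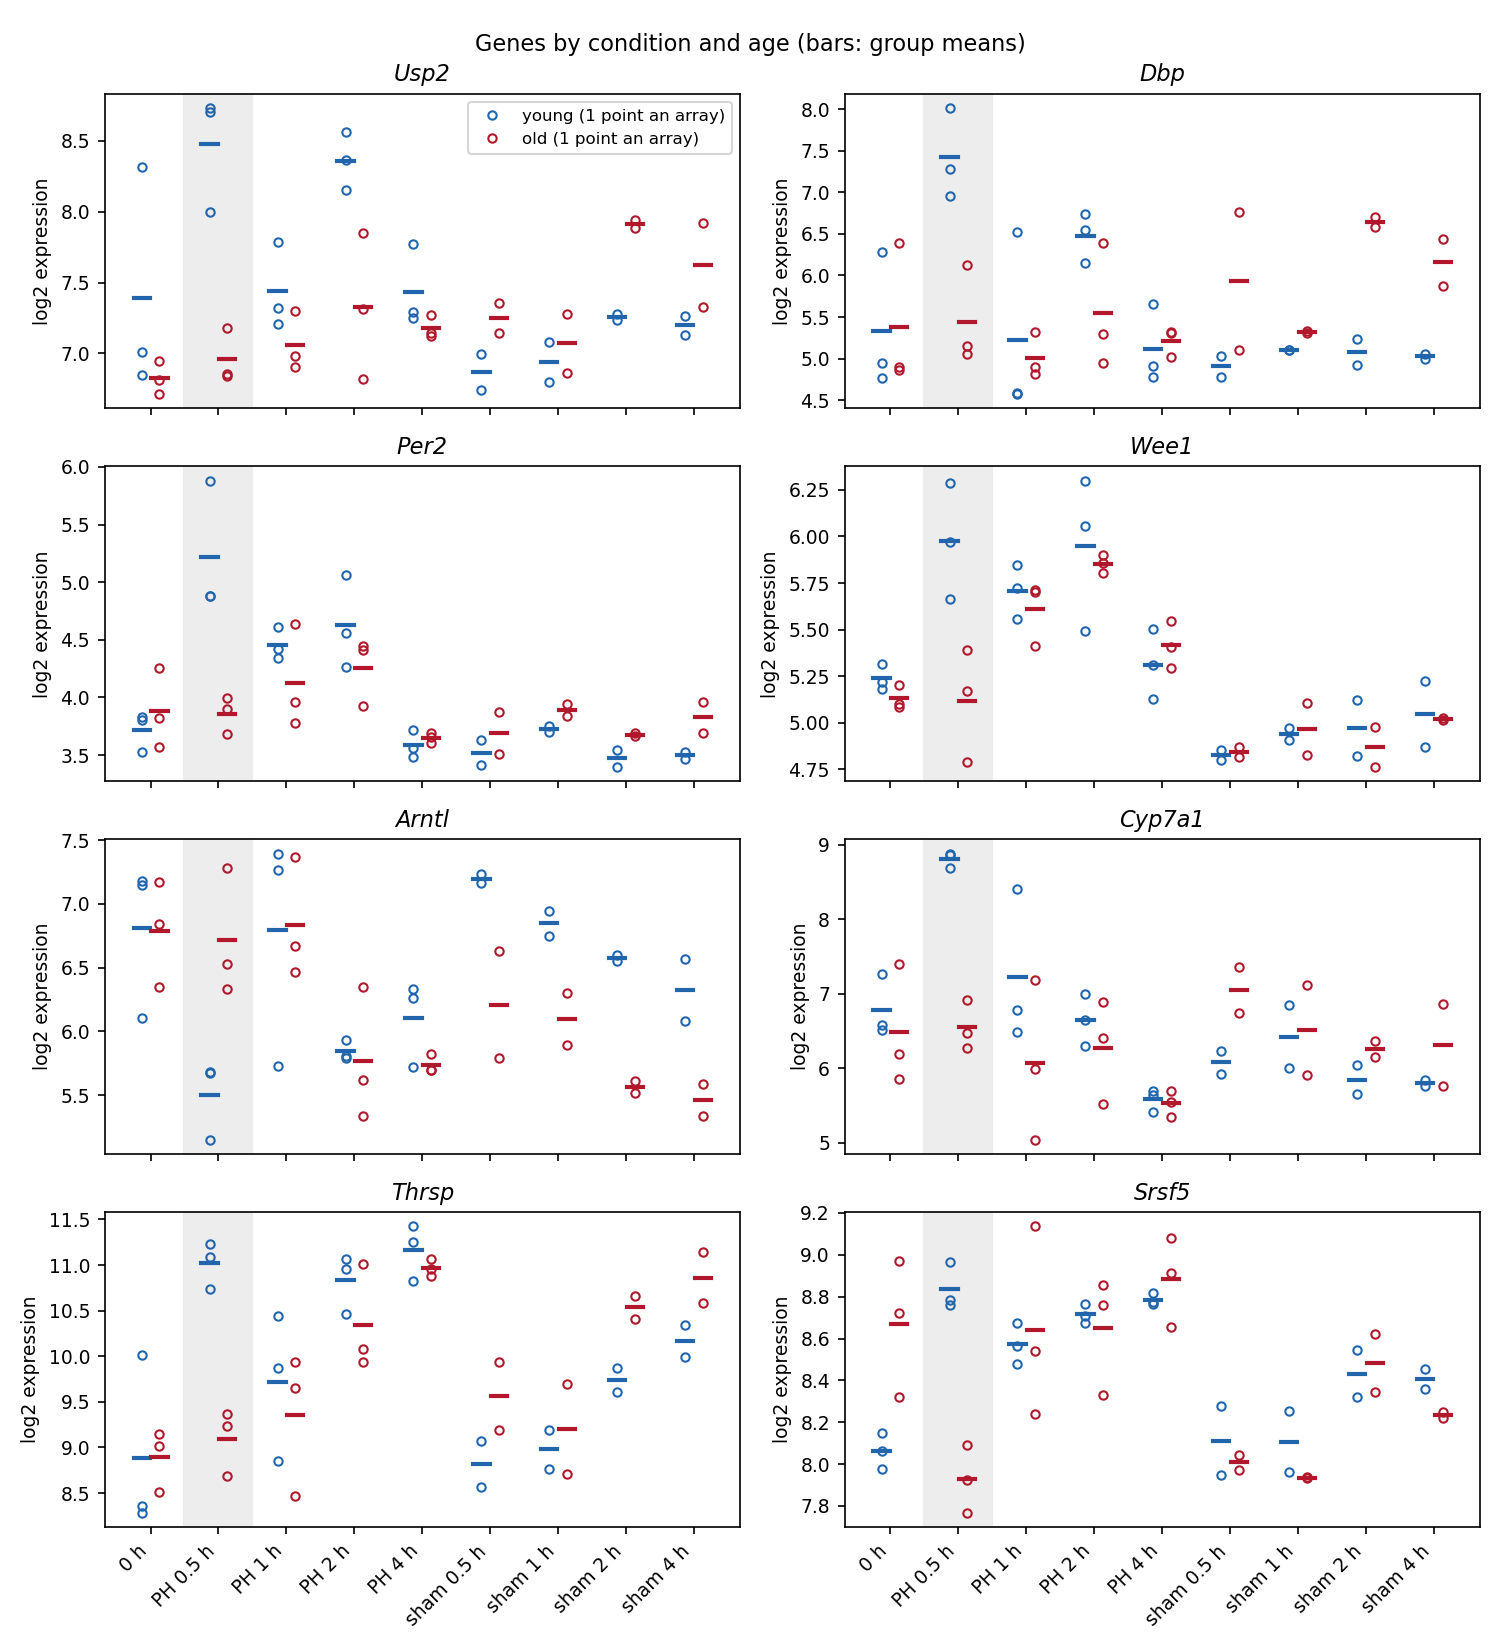
Log2 expression of 8 genes in each array by condition and age, with bars for group means and the compared condition shaded; blue is young and red is old. Young PH 0.5 h has the highest young mean for Usp2 (8.48), Dbp (7.42), Per2 (5.22), Wee1 (5.97), Cyp7a1 (8.81) and Srsf5 (8.84) and the lowest for Arntl (5.50). The genes were chosen from the PH 0.5 h results, which favours such ranks.

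Across the 9 conditions, young liver at 0.5 h after PH had the highest of the young group means for 8 of the 11 lower genes: Cyp7a1, Dbp, Usp2, Per2, Hes6, Srsf5, Elovl2 and Wee1. Old liver at 0.5 h after PH had the lowest of the old means for 2 of them, Srsf5 and Rcl1. For Dbp, the young mean was 7.42 at PH 0.5 h, 6.48 at PH 2 h, which was the next highest, and 5.33 at 0 h. The old means were 5.44 at PH 0.5 h and 5.38 at 0 h, and the highest was 6.65, at sham 2 h. Single arrays of other groups were also high for Dbp. At 0 h it was at 4.77, 4.95 and 6.28 in young and 6.39, 4.86 and 4.90 in old liver. In young liver at PH 1 h it was at 6.52, 4.57 and 4.59. Per2 had young means of 5.22 at PH 0.5 h and 3.72 at 0 h and old means of 3.86 and 3.88. The young arrays at 0 h were at 3.80, 3.53 and 3.83 for Per2, and at 7.18, 7.15 and 6.10 for Arntl. For Arntl the young mean of 5.50 at PH 0.5 h was the lowest of the young means (next lowest 5.84, at PH 2 h), and the old mean was 6.71, within the range of the other old means (5.46 to 6.83). Of the 9 higher genes, old liver at PH 0.5 h had the highest old mean for 4, and young liver the lowest young mean for 2. The genes were selected on the PH 0.5 h arrays, which favours such ranks. These ranks describe the group means and were not tested.

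Genes of bile acid and lipid metabolism made up the next set of lower genes. Cyp7a1, which catalyses the rate-limiting step from cholesterol to bile acids, was at 6.27, 6.92 and 6.47 in old and 8.88, 8.70 and 8.86 in young liver. It had the largest difference among the lower genes, -2.26 ± 0.44 (limma adjusted p = 0.0169), 4.79-fold lower. The 3 young arrays lay close together, and every old array was well below them. The call was lost without old replicate 1 (-2.12) and without any 1 of the young arrays, with adjusted p up to 0.0838. Cyp8b1, which sets the ratio of the bile acids made and was chosen after its values were seen, was at 8.92, 10.66 and 10.78 against 10.65, 10.77 and 10.75, low only in old replicate 1. Over the 16 measured genes of bile acid synthesis and transport the median was -0.17, and Cyp7a1 was the 1 gene that passed. At an unadjusted p under 0.05, 2 were lower and 1 was higher, against 4.52% and 5.55% of all genes.

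Thrsp, a nuclear protein that promotes fatty acid synthesis and responds to thyroid hormone and feeding, was at 9.37, 9.23 and 8.68 in old and 11.09, 10.74 and 11.24 in young liver. It was lower by -1.93 ± 0.39 (limma adjusted p = 0.0169), 3.80-fold. The groups did not overlap, as for 6.35% of all probe sets (lower), and selection of the gene on these arrays favours this. The call was lost without young replicate 1 or 3 (adjusted p up to 0.103). Elovl2, which lengthens polyunsaturated fatty acids, was at 8.15, 7.87 and 8.54 against 9.18, 8.99 and 8.97 (-0.86 ± 0.18, limma adjusted p = 0.0283). Old replicate 3 came closest to the young arrays, and the call was kept only in the fit without it (-1.04) of the 6 fits without 1 array (adjusted p up to 0.138). In the fatty acid synthesis list of 19 genes, 2 were higher and 2 lower at an unadjusted p under 0.05. The shares of all genes were 5.55% and 4.52%. The list median was 0.14, and Thrsp was the 1 gene that passed. Thrsp thus had the opposite sign to the median of its list.

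Nnt, the mitochondrial enzyme that transfers hydride from NADH to NADP, was at 7.89, 8.27 and 8.58 in old and 8.96, 8.79 and 8.99 in young liver. The difference was -0.67 ± 0.15 (limma adjusted p = 0.0364), and it passed in 1 of the 6 fits without 1 array, the one without old replicate 3 (-0.84; adjusted p up to 0.199 in the others). Srsf5, a splicing factor of the SR family, was at 7.92, 7.77 and 8.09 against 8.97, 8.78 and 8.76. It was lower by -0.91 ± 0.16 (limma adjusted p = 0.00394), and passed in 5 of the 6 fits, all but that without young replicate 1 (adjusted p = 0.0557). Hes6, a regulator of the HES family of transcriptional repressors, was at 7.52, 7.75 and 7.73 against 8.59, 8.96 and 8.81 (-1.12 ± 0.22, limma adjusted p = 0.0169). The old arrays of Hes6 lay close together and about 1 unit below the young arrays. Rcl1, a factor needed for processing of ribosomal RNA, was at 8.81, 8.86 and 8.98 against 9.55, 9.71 and 9.80 (-0.80 ± 0.17, limma adjusted p = 0.0230). Hes6 passed in 3 of the 6 fits without 1 array, being lost without old replicate 1 and young replicates 2 and 3 (adjusted p up to 0.0944). Rcl1 passed in 2, being lost without old replicate 1 and each young replicate (adjusted p up to 0.133). Of the 34 ribosome biogenesis genes, 0 were called in either direction in limma. At an unadjusted p under 0.05 there were also 0, against 5.55% (higher) and 4.52% (lower) of all genes.

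Of the 9 higher genes, Ly6e, Ifi27, Ifi47 and Ifih1 are known to respond to interferon, and of these 4 only Ifi47 is in the interferon response list. Ly6e, a surface protein induced by interferon, was at 12.66, 12.63 and 12.04 in old and 10.68, 10.97 and 10.86 in young liver. The difference was 1.60 ± 0.22 (limma adjusted p = 7.21e-05), 3.04-fold, and it passed in all 6 fits without 1 array (1.50 to 1.80). The other probe set of Ly6e did not differ at the threshold (0.07, limma adjusted p = 0.945). Ifi27 was at 10.71, 10.95 and 10.44 against 9.43, 9.84 and 9.26, a difference of 1.19 ± 0.19 (limma adjusted p = 0.00123). It too passed in all 6 fits, with adjusted p up to 0.0317, and did not pass when only the compared groups were fitted. Ifi47, an interferon-induced GTPase, was at 7.34, 7.40 and 6.84 against 5.97, 6.13 and 6.26 (1.07 ± 0.25, limma adjusted p = 0.0442). Ifih1, the cytosolic sensor of double-stranded RNA known as MDA5, was at 7.04, 7.68 and 7.29 against 6.68, 6.79 and 6.83 (0.57 ± 0.13, limma adjusted p = 0.0364). For each of these 4 genes all old arrays were above all young arrays, as for 8.05% of all probe sets. Their selection on these same arrays favours this, and it adds no support. The Ifi47 call was kept only without old replicate 3 (1.25), and that of Ifih1 only without old replicate 1 (0.72) or old replicate 3.

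The interferon response list lay mostly above 0, with small differences. Of its 26 measured genes, 25 were above 0 and 1 was below, beside 54.3% above 0 over all genes. Ifi47 was the 1 gene that passed, and 14 genes were higher and 1 was lower at an unadjusted p under 0.05, against 5.55% and 4.52% of all genes. The list median was 0.37, and without old replicate 2 it was 0.27 with 4 genes higher. Isg15, a ubiquitin-like modifier, was at 7.89, 7.64 and 7.36 against 7.13, 7.16 and 7.21 (0.46, limma adjusted p = 0.189). Gbp3, a guanylate-binding protein, was at 6.38, 7.08 and 6.62 against 6.11, 6.03 and 6.08 (0.62, limma adjusted p = 0.184). Irf7, the factor that amplifies interferon production, was at 8.51, 8.17 and 7.67 against 7.33, 7.61 and 7.34 (0.69, limma adjusted p = 0.0782). In these 3 genes, chosen after their values were seen, the groups did not overlap but no difference passed. Of the 26 genes 12 were higher and 1 was lower without overlap, against 8.12% and 6.67% of all genes. The mean level over the list was 6.59 to 6.97 on the old and 6.36 to 6.49 on the young arrays.

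The promoters of Isg15 and Gbp3 are shown as members whose RefSeq windows hold the word TTTC, any 2 bases, TTTC, the core of the interferon-stimulated response element. The word was found, on either strand, in 8 of the 19 interferon list genes with a window (42.1%) and in 3.99% of all 27025 genes. The 8 genes were Gbp2, Gbp3, Ifit1, Ifit3, Igtp, Irgm1, Isg15 and Rsad2, of which Rsad2 had an age difference of 0.04. Among the higher genes it was in 2 of the 7 with a window, Ifih1 and Pnrc1, and Ly6e and Ifi27 were not among the windows used. Capitals mark the match, which in both genes is made of overlapping copies and in Isg15 is the reverse complement. The stretch of Isg15 is chr4:156200832-156200931 (- strand), with its match beginning 78 bases before the start, and that of Gbp3 is chr3:142559964-142560043 (+ strand), with its match beginning 45 bases before the start.
Isg15: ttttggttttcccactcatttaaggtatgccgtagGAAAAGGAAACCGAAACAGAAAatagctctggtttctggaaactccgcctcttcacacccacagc
Gbp3: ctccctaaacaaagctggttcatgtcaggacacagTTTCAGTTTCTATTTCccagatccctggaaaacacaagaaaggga

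Mpeg1 and H2-Eb1, genes of antigen-presenting cells, were also higher. Mpeg1, the pore-forming perforin-2 of macrophages, was at 9.87, 9.27 and 8.36 in old and 7.82, 8.07 and 8.13 in young liver. The difference was 1.16 ± 0.25 (limma adjusted p = 0.0320), with old replicate 3 close to the young arrays. It passed in 1 of the 6 fits, that without old replicate 3 (1.56), and was 0.81 without old replicate 1 (adjusted p up to 0.16 in the other fits). A second, dim probe set of Mpeg1 did not differ (-0.02). H2-Eb1, a chain of the class II molecule, was at 8.87, 8.98 and 9.05 against 8.37, 8.45 and 8.20 (0.63 ± 0.14, limma adjusted p = 0.0345). All its old arrays were above its young arrays, as for 8.05% of all probe sets, and selection of the gene on these arrays favours this. The call was lost in each of the 6 fits without 1 array (differences 0.56 to 0.68, adjusted p up to 0.233). In whole liver, more cells of a type and more RNA per cell cannot be told apart.

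Among 24 macrophage and Kupffer cell markers, 22 were above 0, 15 were higher and 0 were lower at an unadjusted p under 0.05, and Mpeg1 alone passed the adjusted threshold in limma. Of all genes 54.3% were above 0, 5.55% were higher and 4.52% were lower. The median difference was 0.62. Without old replicate 1 it was 0.45, with 8 genes higher. The mean level of the list was 7.16, 6.82 and 6.75 on the old and 6.30, 6.46 and 6.33 on the young arrays. Clec4f, the lectin that marks Kupffer cells, was at 8.84, 8.76 and 8.66 in old and 8.08, 8.23 and 8.08 in young liver (0.63, limma adjusted p = 0.294). Tyrobp, the signalling adaptor of myeloid receptors, was at 7.53, 7.34 and 7.01 against 6.25, 6.55 and 6.29 (0.93, limma adjusted p = 0.064). Both, chosen after their values were seen, did not overlap between the ages and did not pass. Of the 24 markers 14 were higher and 0 lower without overlap, against 8.12% and 6.67% of all genes. In the list of 18 MHC genes, 16 were above 0, 9 were higher and 0 lower at an unadjusted p under 0.05, and the median was 0.21. H2-Aa, a chain of another class II molecule and chosen after its values were seen, was at 8.11, 8.47 and 8.30 against 7.38, 7.34 and 7.21 (0.98, limma adjusted p = 0.0703).

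Markers of other cells were set beside these lists. The mean level of 14 B cell markers was 5.90 to 5.99 on the old and 5.91 to 5.94 on the young arrays, and that of 23 T and NK cell markers was 5.45 to 5.58 and 5.43 to 5.52. For 20 neutrophil markers it was 6.67, 5.47 and 5.64 on the old and 5.31 to 5.43 on the young arrays. For 12 immunoglobulin and plasma cell genes it was 6.73, 6.23 and 6.27 against 5.92 to 6.02. Old replicate 1 was thus the high array for neutrophil and plasma cell genes, while the B and T cell ranges overlapped. The 17 endothelial, 33 stellate cell, 13 cholangiocyte and 11 erythroid markers had medians of 0.01, 0.03, 0.05 and 0.02. The mean level of the hepatocyte list was 10.64, 10.75 and 10.62 in old and 10.88, 10.84 and 10.88 in young liver. Of its 27 genes 22 were below 0, 9 were lower and 0 higher at an unadjusted p under 0.05, and 0 passed in limma, with a median of -0.17. Of all genes 54.3% were above 0, 4.52% were lower and 5.55% were higher. The part of cell composition in the interferon and macrophage results was not tested.

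The remaining higher genes belonged to no common list. Lgalsl, a galectin-related protein, was at 6.44, 6.37 and 6.66 in old and 5.62, 5.11 and 5.50 in young liver (1.08 ± 0.25, limma adjusted p = 0.0446). Its call was lost in each of the 6 fits without 1 array (0.93 to 1.19, adjusted p up to 0.202). Pnrc1, a coregulator of nuclear receptors, was at 8.74, 8.88 and 9.32 against 8.41, 8.37 and 8.31 (0.62 ± 0.14, limma adjusted p = 0.0442). Unc119b, a protein that carries lipid-modified proteins to cilia, was at 8.59, 8.86 and 8.69 against 8.36, 8.28 and 8.29 (0.40 ± 0.085, limma adjusted p = 0.0230). Pnrc1 and Unc119b each passed in 2 of the 6 fits. The Pnrc1 call was lost without old replicate 3 (0.45) and without each young array, and that of Unc119b without old replicate 2 (0.33) and without each young array. The largest difference of all tested probe sets that passed, 3.01, was in a probe set with several gene symbols, which is not named. It was at 12.29, 10.32 and 11.62 in old and 8.12, 8.40 and 8.67 in young liver.

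The higher and lower groups differed in how they stood in the other 8 conditions, whose arrays are separate from those compared. In these conditions 498 probe sets were higher (4.01% of those tested) and 400 were lower (3.22%) in old liver. Of the 20 probe sets higher at PH 0.5 h, 14 were higher there too (70% of the 20 and 2.81% of the 498), and 16 had the same sign. Of the 19 lower ones, 5 were lower there too (26.3% of the 19 and 1.25% of the 400), and 13 had the same sign. The median difference of the 20 was 0.66 at PH 0.5 h and 0.40 elsewhere, and that of the 19 was -0.91 and -0.08. Ly6e differed by 1.60 at PH 0.5 h and by 1.18 elsewhere (limma adjusted p = 9.62e-12). The 0.42 between these did not pass (limma adjusted p = 0.761). Ifi27 was of like size at both (1.18 elsewhere, limma adjusted p = 3.26e-13). Mpeg1 (0.82), Ifi47 (0.57), Ifih1 (0.42) and Unc119b (0.15) passed there too, and with Ly6e and Ifi27 were above 0 in each of the 8 conditions. Lgalsl (-0.09) and Pnrc1 (-0.05) did not pass there. Of the lower genes, Nnt (-0.60, limma adjusted p = 1.04e-08) and Elovl2 (-0.44, limma adjusted p = 0.000179) passed, and Nnt was below 0 in all 8 conditions. Cyp7a1 (0.01), Dbp (0.37), Thrsp (0.18), Usp2 (-0.08) and Per2 (0.05) did not. These means average conditions of opposite sign, and the single conditions were not tested. Cyp7a1 ran from -1.15 (PH 1 h) to 0.97 (sham 0.5 h). From PH 2 h to sham 2 h, the lowest and highest, Usp2 ran from -1.03 to 0.66, Dbp from -0.93 to 1.56 and Thrsp from -0.49 to 0.80. Per2 ran from -0.37 (PH 2 h) to 0.33 (sham 4 h).

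**Figure D3:**
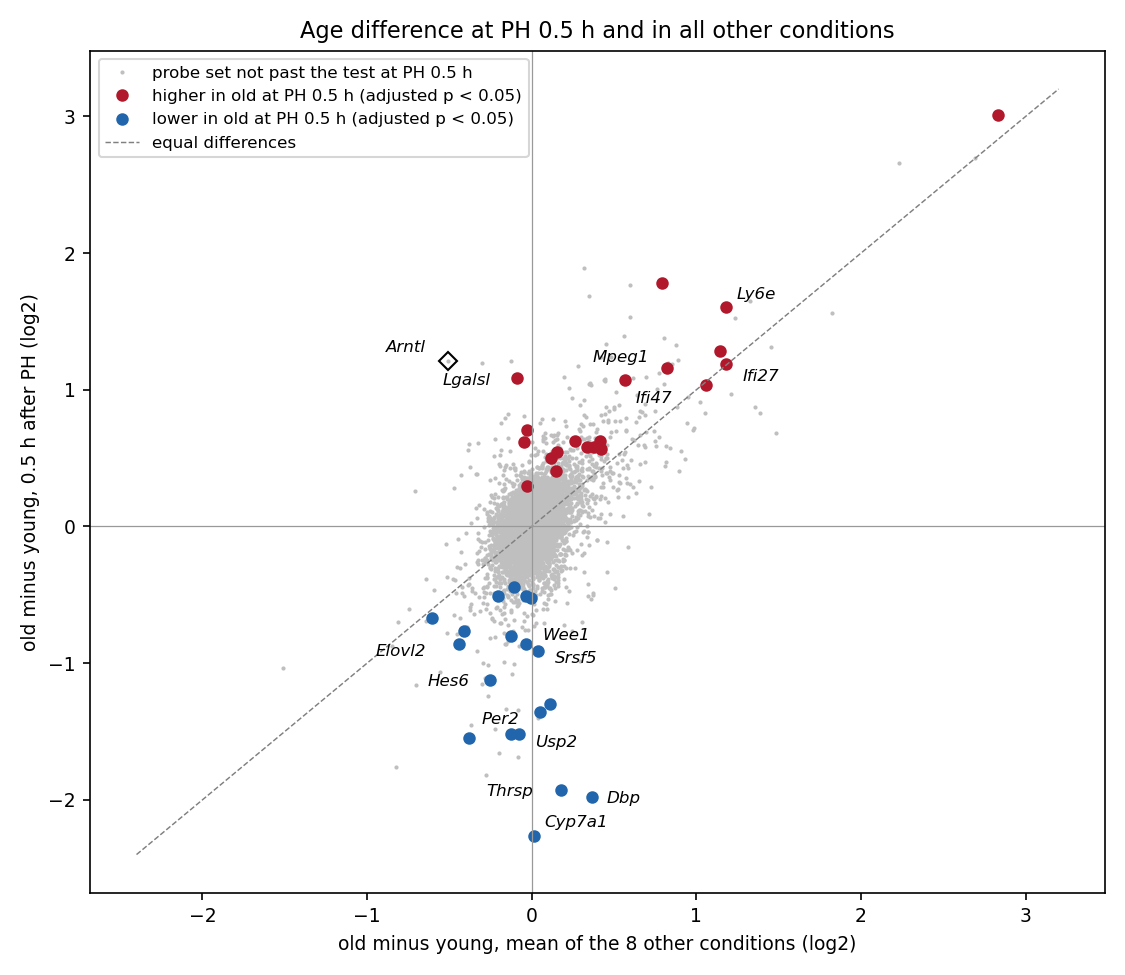
Old minus young log2 expression of each probe set at 0.5 h after PH (vertical) against the mean of the 8 other conditions (horizontal); red and blue points passed at 0.5 h, the open diamond is Arntl and the dashed line marks equal differences. The red points lie to the right of 0 for 16 of 20 probe sets, while Cyp7a1, Dbp, Thrsp, Usp2 and Per2 lie near or right of 0 on the horizontal axis at differences of -2.26 to -1.36 on the vertical one.

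The difference between these age differences was tested directly, as the value at PH 0.5 h minus that in the other conditions. It passed for 10 probe sets (0.0805% of those tested; 869 or 7% at an unadjusted p under 0.05), 9 of them below 0 (0.0725%). By gene these were Dbp (-2.34 ± 0.49), Cyp7a1 (-2.27 ± 0.48), Thrsp (-2.10 ± 0.42), Usp2 (-1.44 ± 0.28 and, for its other probe set, -1.39 ± 0.21), Per2 (-1.41 ± 0.23), Pik3r1 (-1.28 ± 0.26), Srsf5 (-0.95 ± 0.17) and Wee1 (-0.82 ± 0.17), with limma adjusted p from 0.00153 to 0.0456. Arntl was the 1 above 0, by 1.72 ± 0.36 (limma adjusted p = 0.0456). Pik3r1, the regulatory subunit of phosphoinositide 3-kinase, was at 6.12, 5.02 and 6.03 in old and 6.93, 6.46 and 6.73 in young liver. Its age difference at PH 0.5 h itself, -0.98 ± 0.24, did not pass (limma adjusted p = 0.0661; 0.0360 without old replicate 3). Of the 20 probe sets higher in old liver at PH 0.5 h, 0 passed this test in limma. Without young replicate 1, 2 or 3 the 10 became 3, 2 and 2, and with the sham arrays left out of the other conditions they became 3.

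Against single conditions fewer probe sets passed. The age difference at PH 0.5 h differed from that in unoperated liver for Srsf5 only (0.00805% of probe sets; 957 or 7.7% at an unadjusted p under 0.05). Srsf5 was at a mean of 8.06 in young and 8.67 in old liver at 0 h, and at 8.84 and 7.93 at PH 0.5 h. The order of the ages was thus reversed, a change of -1.52 ± 0.23 (limma adjusted p = 0.00136), which did not pass with only the compared groups fitted (adjusted p = 0.0570). Against sham surgery at 0.5 h the 1 probe set that passed was the dimmer one of Usp2, by -1.78 ± 0.31 (limma adjusted p = 0.0202; 0.00805% of probe sets, and 433 or 3.49% at an unadjusted p under 0.05). That count became 0 without old replicate 1 or 3, young replicate 1 or 2, or either young sham array, and 2 without old replicate 2 or old sham replicate 2. The count against 0 h became 11 without old replicate 3, 7 without young 0 h replicate 3, 3 without young replicate 1 or 2 or old 0 h replicate 3, and 2 without old replicate 2 or old 0 h replicate 2.

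Immediate early genes varied widely among the old arrays. Egr1 was at 6.95, 6.62 and 10.24 in old and 9.56, 9.55 and 9.76 in young liver. Fos was at 4.48, 4.40 and 10.75 against 8.12, 7.48 and 9.49. In both genes old replicates 1 and 2 were below, and old replicate 3 above, all young arrays. The differences of -1.69 ± 0.57 for Egr1 (limma adjusted p = 0.207) and -1.82 ± 0.92 for Fos (limma adjusted p = 0.539) did not pass. Without old replicate 3 they were -2.84 and -3.92 and both passed (limma adjusted p = 0.000717 for each). The other Fos probe set, which is dim on all 6 arrays, gave 0.05. Ier2, another gene of the list chosen after its values were seen, was at 7.34, 6.77 and 10.59 against 9.53, 8.68 and 9.50. Jun (7.45, 7.09 and 8.38 against 7.59, 7.52 and 7.71) and Atf3 (6.78, 6.22 and 9.76 against 7.77, 7.25 and 7.80) had the same high array. Their mean differences were 0.03 and -0.02, with changing sign when single arrays were left out. Myc, the growth regulator, was at 4.21, 3.85 and 4.30 against 4.73, 4.98 and 4.49 (-0.61, limma adjusted p = 0.656).

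Over the 38 immediate early genes the median was -0.01, 3 were higher and 2 lower at an unadjusted p under 0.05, against 5.55% and 4.52% of all genes, and 0 passed in limma. The mean level of the list was 7.33, 7.01 and 8.19 on the old and 7.73, 7.54 and 7.75 on the young arrays, and the median ran from -0.20 without old replicate 3 to 0.07 without old replicate 2. Old replicate 3 was also the array with the lowest spike-in mean. With that mean as a covariate the list median was -0.09, with 2 genes higher and 9 lower. Igfbp1, a secreted binding protein of insulin-like growth factors that hepatocytes make early after hepatectomy, was at 9.44, 6.30 and 10.12 against 10.14, 9.69 and 10.47. It was low only in old replicate 2, and the difference of -1.48 ± 0.57 did not pass (limma adjusted p = 0.307). Cebpb, a transcription factor of the acute phase and of regeneration, was at 10.68, 8.65 and 9.52 against 10.75, 10.42 and 10.38 (-0.90, limma adjusted p = 0.119). Without old replicate 1 it was -1.43 and passed (limma adjusted p = 0.000475). Cdkn1a, an inhibitor of cyclin-dependent kinases, differed by 0.11 and the hepatocyte mitogen Hgf by -0.01, and neither passed. The other Cdkn1a probe set gave 0.37 and did not pass (limma adjusted p = 0.733).

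**Figure D4:**
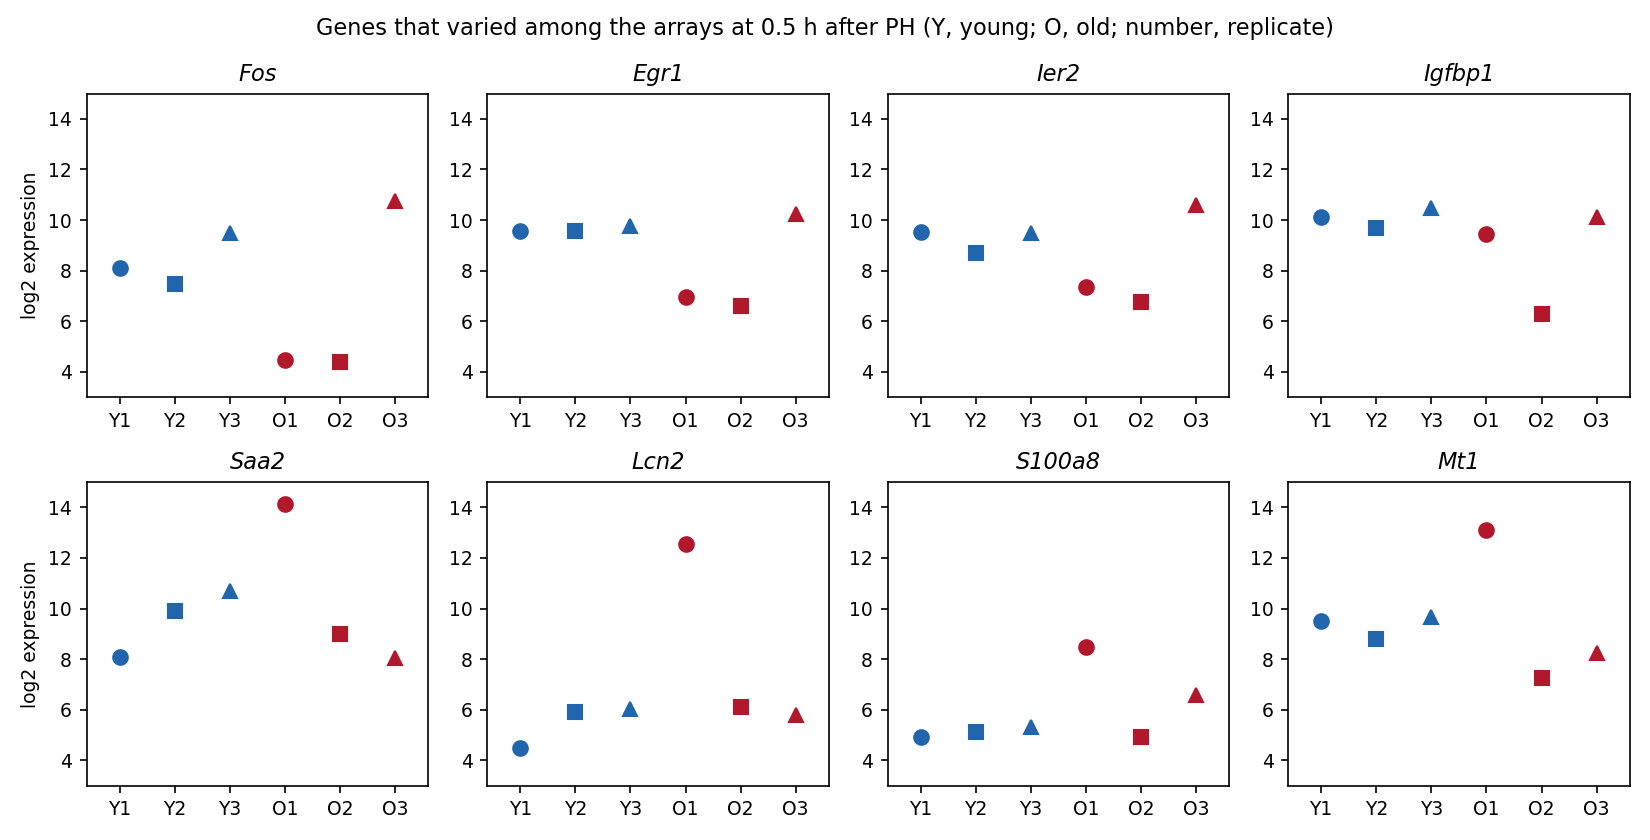
Log2 expression of 8 genes on each of the 6 arrays at 0.5 h after PH (Y, young; O, old; the number is the replicate). Fos, Egr1 and Ier2 are high on old replicate 3 (10.75, 10.24 and 10.59) and low on the other old arrays, and Saa2, Lcn2, S100a8 and Mt1 are highest on old replicate 1 (14.13, 12.55, 8.47 and 13.10).

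Acute phase and neutrophil genes were high on a different old array. Saa2, a serum amyloid A protein of the acute phase, was at 14.13, 9.01 and 8.05 in old and 8.08, 9.92 and 10.71 in young liver. Lcn2, the iron-scavenging lipocalin, was at 12.55, 6.10 and 5.79 against 4.51, 5.93 and 6.02. Old replicate 1 exceeded every other array in both, and the differences of 0.83 ± 1.07 (limma adjusted p = 0.888) and 2.66 ± 1.16 (limma adjusted p = 0.397) did not pass. The metallothioneins, which bind zinc and are induced by stress hormones, had the same high array, with Mt1 at 13.10, 7.25 and 8.24 against 9.51, 8.80 and 9.65 and Mt2 at 13.25, 8.26 and 8.23 against 8.82, 9.09 and 10.16. Socs3, which IL-6 induces and which shuts its receptor off, was at 8.47, 6.49 and 6.74 against 6.37, 6.56 and 6.33 (0.81, limma adjusted p = 0.29). Its other probe set did not overlap between the ages, at 8.40, 6.48 and 6.82 against 5.93, 5.95 and 5.83. That difference, 1.33, did not pass either (limma adjusted p = 0.1002). Of all probe sets 8.05% were higher without overlap. The neutrophil protein gene S100a8 was at 8.47, 4.91 and 6.59 against 4.93, 5.10 and 5.33, and S100a9 at 8.05, 5.67 and 6.60 against 5.27, 5.41 and 5.92. Igha, the heavy chain of immunoglobulin A, was at 10.22, 6.88 and 6.55 against 6.26, 6.33 and 6.00 (1.69, limma adjusted p = 0.145; 2.35 and 0.0185 without old replicate 3). A dimmer probe set of Igha passed, at 5.81, 4.91 and 4.66 against 4.66, 4.27 and 4.34 (0.70 ± 0.16, limma adjusted p = 0.0442). Its lowest old array was barely above its highest young array. Another dim probe set of Igha, at 4.79, 4.92 and 4.83 against 4.61, 4.83 and 4.73, did not pass (0.12, limma adjusted p = 0.945). By the probe set of highest mean signal, old replicate 1 was the highest array for all 8 of these genes.

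The median over 23 acute phase genes was 0.39, with 4 higher and 0 lower at an unadjusted p under 0.05 and 0 passing in limma. Of all genes 5.55% were higher and 4.52% lower at that threshold. Without old replicate 1 the median was -0.11 with 0 higher, without old replicate 2 it was 0.64 with 9 higher and without old replicate 3 it was 0.69 with 14 higher. The mean level of the list was 11.90, 9.74 and 9.65 on the old and 9.70, 9.95 and 10.16 on the young arrays. The 20 neutrophil markers had a median of 0.34 with 6 higher, and 0.12 with 0 higher without old replicate 1. In sterol synthesis all 18 measured genes were above 0, 8 were higher and 0 lower at an unadjusted p under 0.05, and the median was 0.44. Without old replicate 1 it was 0.16, with 0 higher. Fdft1, the squalene synthase that commits to sterols, was at 9.96, 8.97 and 9.03 against 8.58, 8.76 and 8.68 (0.64, limma adjusted p = 0.181). Msmo1, which removes methyl groups from sterol precursors, was at 9.80, 9.34 and 8.77 against 8.42, 8.66 and 8.54 (0.76, limma adjusted p = 0.266). In both genes, the 2 of the list with the smallest p, all old arrays were above all young arrays. This held for 4 of the 18 genes of the list, against 8.12% of all genes. The highest array in both genes was old replicate 1. The 8 other conditions do not use this array. There, at an adjusted p under 0.05 in limma, 12 acute phase genes were higher and 0 lower (median 0.44). For sterol synthesis it was 8 and 0 (median 0.28), and for neutrophil markers 1 and 0 (median 0.08). Of all genes 4.44% were higher and 3.14% lower there.

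Several lists of hepatocyte metabolism lay below 0 without a passing gene. Of 27 genes of glucocorticoid, cAMP and gluconeogenesis regulation, 19 were below 0, 7 were lower and 1 was higher at an unadjusted p under 0.05, and the median was -0.18. G6pc, the last enzyme of glucose release, was at 9.69, 10.51 and 11.57 in old and 11.66, 11.52 and 11.90 in young liver. Its difference of -1.11 did not pass (limma adjusted p = 0.0976), with old replicate 3 just above the lowest young array. Without that array it was -1.60 and passed (limma adjusted p = 0.00209). Lpin1, a phosphatidate phosphatase that also acts as a regulator of fat metabolism, was at 7.23, 7.67 and 6.33 against 9.34, 8.16 and 9.01. Its difference of -1.76 ± 0.49 did not pass (limma adjusted p = 0.102). Of 25 genes of fatty acid oxidation 19 were below 0 (median -0.18, 3 lower), of 26 of the urea cycle and amino acid catabolism 20 were below 0 (median -0.13, 5 lower), and of 15 male-biased liver genes 12 were below 0 (median -0.25, 2 lower), with 0 higher in each. The mean level of the male-biased list was 9.96, 10.71 and 10.69 in old and 10.71, 10.71 and 10.80 in young liver, low on old replicate 1. Cps1, the enzyme that starts the urea cycle, differed by -0.42 (limma adjusted p = 0.0843), and Rbp4, the plasma retinol carrier, was at 11.79, 12.54 and 12.09 against 12.62, 12.57 and 12.60 (-0.46, limma adjusted p = 0.0828). Cps1 passed without old replicate 3 (-0.48, adjusted p = 0.0490) and Rbp4 without old replicate 2 (-0.66, adjusted p = 0.00261). Of 44 drug metabolism genes 7 were lower and 2 higher (median -0.05). The smallest adjusted p there were those of Gstp1, a glutathione transferase (-0.55, limma adjusted p = 0.0918, and 0.0243 without old replicate 2), and Cyp3a11, a steroid and drug hydroxylase (-0.59, limma adjusted p = 0.151). Of 35 heat shock and endoplasmic reticulum chaperone genes 6 were higher and 1 lower (median 0.03), and among the 46 genes for the cell cycle and DNA replication 3 were higher with none lower (median 0.03). These counts are at an unadjusted p under 0.05, against 5.55% higher and 4.52% lower of all genes, and 0 genes of these lists passed in limma.

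**Figure D5:**
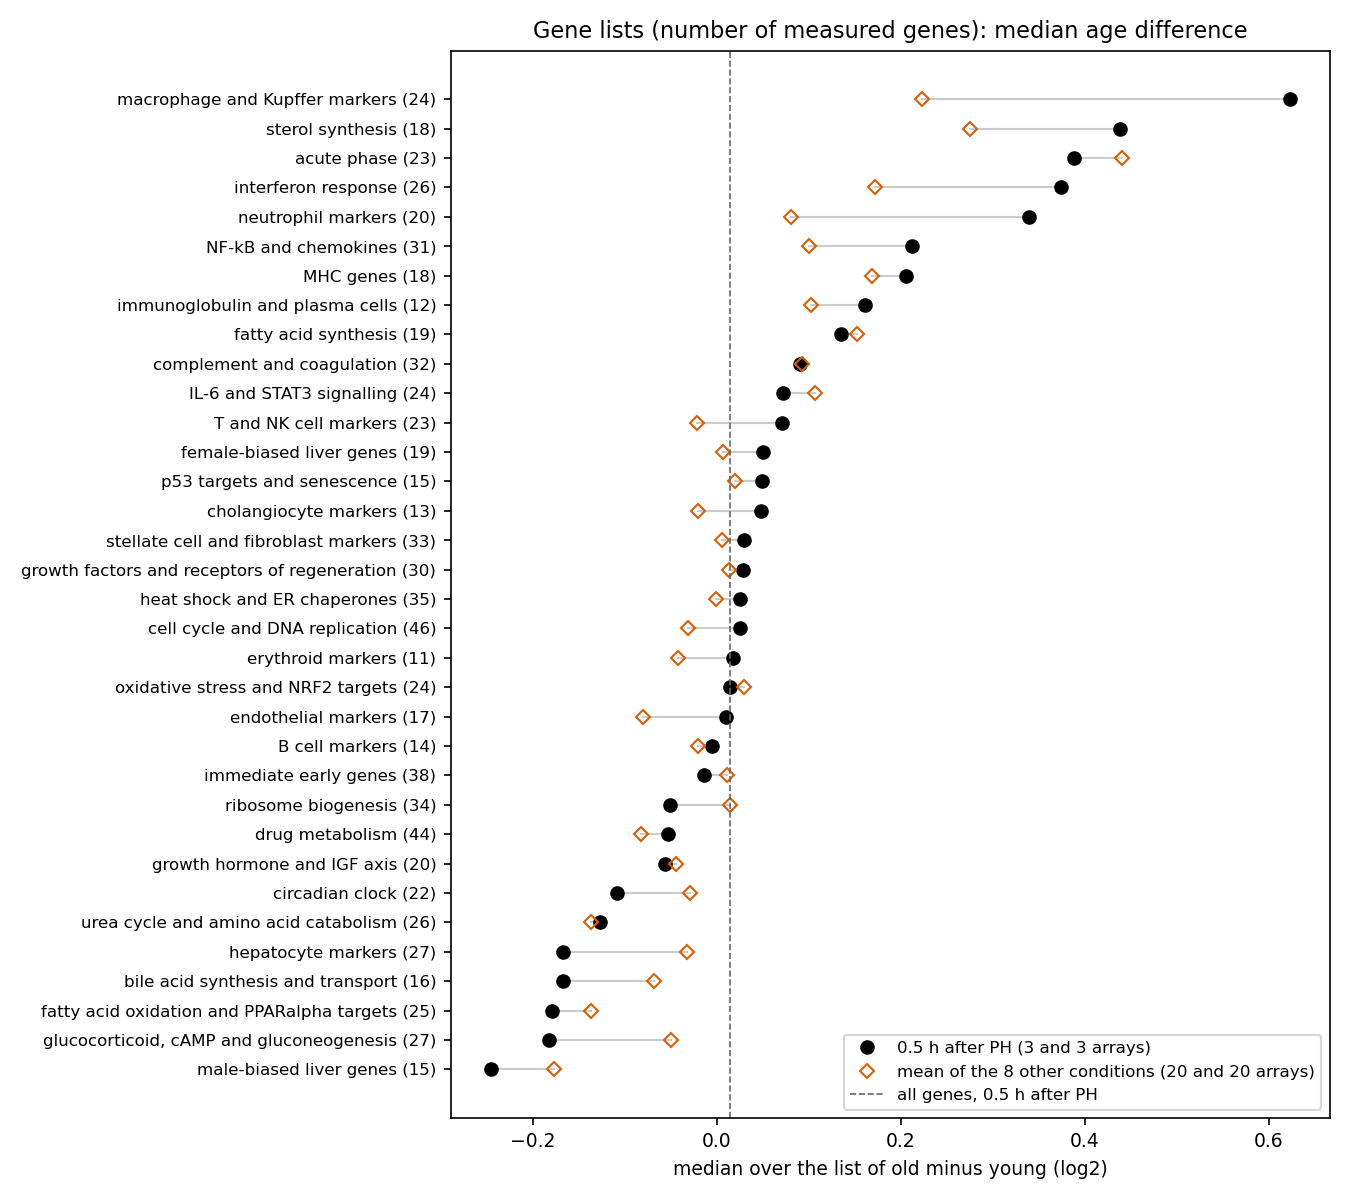
Median old minus young log2 difference over the measured genes of each of 34 lists (number of genes in brackets) at 0.5 h after PH (filled circles) and in the mean of the 8 other conditions (open diamonds); the dashed line is the median of all genes at 0.5 h. Medians at 0.5 h run from -0.25 (male-biased liver genes) to 0.62 (macrophage and Kupffer markers), and the diamonds for these lists are at -0.18 and 0.22. The male-biased list is low on old replicate 1.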

How the data were processed

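The deposited table holds log2 expression values that the authors made with RMA, per the submitters' processing notes, from Affymetrix arrays of total liver RNA. The sources used here do not give the RMA version or say which arrays were processed jointly. No value was transformed further, and for arrays the number of arrays limits the precision.

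Of 12488 probe sets 66 controls were left out. Of the 12422 tested, 10833 had 1 gene symbol in the platform annotation, 396 several and 1193 none, and genes were named only from the first kind. Samples were grouped by their labels. All 46 arrays entered 1 model with 18 group means (limma 3.58.1, R 4.3.3, lmFit and eBayes; 28 residual and 5.09 prior degrees of freedom), and age differences were contrasts. The Benjamini-Hochberg adjustment covered all 12422 probe sets, with a threshold of 0.05. Values after ± are standard errors of this model, in which the spread of a probe set is pooled over the 18 groups. They do not show the larger spread of the old arrays at PH 0.5 h. The model was tested on simulated data with the same spread in all groups. That simulation cannot show how the larger spread of the old arrays affects the calls.

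The genes named were up to 15 highest and 15 lowest passing genes, for each list described up to 4 of its passing genes (or, where none passed, the 2 with the smallest p), up to 10 passing genes of each test of a difference, and a short list of regeneration genes. Others are said to be chosen after their values were seen. The comparison, the 34 gene lists and the genes were chosen with earlier results of these data known. Promoter windows came from RefSeq (GRCm38.p6). Alternatives were median centring, leaving out the dimmest 25% of probe sets, trend and robust settings, the compared groups alone, 1 probe set per gene, the replicate block, array weights and leaving out single arrays. The spike-in covariate and leaving the sham arrays out were chosen after seeing the data.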

Additional observations from a re-analysis of the deposited data

Results flagged for a closer look

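Several genes had an age difference at 0.5 h after PH that differed, by the test of that difference in limma, from the age difference in other groups. Against the mean of the 8 other conditions these were Dbp (-2.34, adjusted p = 0.0456), Cyp7a1 (-2.27, 0.0456), Thrsp (-2.10, 0.0403), Usp2 (-1.44, 0.0304), the other probe set of Usp2 (-1.39, 0.00153), Per2 (-1.41, 0.00355), Pik3r1 (-1.28, 0.0456), Srsf5 (-0.95, 0.0155), Wee1 (-0.82, 0.0456) and Arntl (1.72, 0.0456). Against unoperated liver this was Srsf5 (-1.52, 0.00136). Against sham surgery at the same time it was the dimmer probe set of Usp2 (-1.78, 0.0202). Of these genes Dbp, Usp2, Per2, Wee1 and Arntl belong to the circadian clock list. When the sham arrays were left out of the other conditions the difference was -1.79 for Cyp7a1 (adjusted p = 0.215), -1.72 for Dbp (0.263) and 1.32 for Arntl (0.221).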

How the results depend on the processing

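The 39 probe sets that differed between the ages became 16 with 1 probe set per gene, 96 with array weights and 23 with the compared groups alone, and 8 to 94 when single arrays were left out. Of the 23, 13 were among the 39. The share of higher calls was 51.3% as reported, 42.9% with median centring and 43.2% with the spike-in covariate. For the change from 0 h the count of 1 became 5 with median centring, 4 with 1 probe set per gene, 82 with array weights, 0 with the compared groups alone and 4 with the spike-in covariate, and 1 to 11 without single arrays. For the change from sham surgery the count of 1 became 0 with 1 probe set per gene and 2 with the compared groups alone, and 0 to 2 without single arrays. The 898 probe sets of the other conditions became 1487 without the sham arrays, and 605 to 1170 without single arrays. The 10 of the test between PH 0.5 h and the other conditions became 3 with trend and robust settings, 5 with the replicate block, 28 with array weights, 6 with the spike-in covariate and 3 without the sham arrays, and 2 to 14 without single arrays. Its fit of the compared groups alone is the reported fit and adds no value. The cause of these shifts was not tested.

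The replicate numbers were not taken as pairs: the deviations of same-numbered old and young arrays correlated at -0.170, 0.0868 and 0.0571. With the replicate block 35 probe sets passed in place of 39.

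Some differences that did not pass changed sign. With array weights Atf3 was 0.38, Ccnd1 0.0225 and Mt1 -0.50, and with the spike-in covariate Jun was -0.14 and Hgf 0.0229. Without single arrays the ranges were -1.10 to 0.67 for Atf3, -0.0564 to 0.0453 for Ccnd1, -1.57 to 1.35 for Mt1, -0.34 to 0.31 for Jun, -0.0788 to 0.0226 for Hgf, -0.0329 to 0.18 for Cdkn1a, -1.04 to 2.00 for Saa2 and -1.11 to 1.40 for Mt2. Of the 20 genes that passed, 4 (Ly6e, Ifi27, Usp2 and Per2) passed in each of the 6 fits without 1 array, and 0 genes that passed changed sign in any alternative run. Counting also the genes that passed a test of a difference, there were 30 gene results that passed. Over all alternatives these kept their call 261 times and lost it 163 times. With 3 arrays a group, of which the old ones vary more, differences that did not pass are not shown to be absent.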
